A study of Mus musculus with 8 samples.

Results

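Adrenergic receptors and their signaling partners were measured here as 9 genes, chosen by their gene names among the 46040 genes counted: the receptor genes *Adrb1*, *Adrb3*, *Adra1a* and *Adra1b*, the adenylyl cyclase genes *Adcy5* and *Adcy6*, the receptor kinase gene *Grk5*, and the arrestin genes *Arrb1* and *Arrb2*. The RNA was extracted from the LV of male C57BL/6 mice aged 5 to 7 months, all infused with angiotensin II (angII, 0.1 mg/kg/h), and was taken at day 14 from animals still alive on that day. VEGFR-1 TK-/- mice, which carry an allele of *Flt1* without the tyrosine kinase (TK) domain of VEGFR-1, were compared with their littermate controls, with 4 libraries in each group. The labels contradict each other: in every library the genotype tag and the library name give one genotype and the sample title gives the other. Libraries were grouped by tag and library name and are called control-tagged and knockout-tagged. Differences are knockout-tagged minus control-tagged, so that every sign reverses if the titles are right.

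Noradrenaline released from sympathetic nerves and circulating adrenaline act on these receptors. In cardiomyocytes, beta receptors couple through Gs to adenylyl cyclase, whose cAMP activates protein kinase A (PKA) and increases the rate and force of contraction, whereas alpha-1 receptors couple through Gq to phospholipase C beta and are known for their link to growth of the myocyte. G protein-coupled receptor kinases phosphorylate active receptors, and arrestins then bind them, end G protein coupling and carry the receptors into the cell. Lower receptor density and weaker coupling are well known features of the failing heart, and the comparison asks whether the RNA of this pathway differed between the genotypes under pressure overload.

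Total counts per library ranged from 11449137 to 16239670. *Flt1*, the targeted gene, had a normalized CPM (counts scaled to a common library size, the same for all libraries) of 69.3 ± 11.3 with the control tag and of 158 ± 13.2 with the knockout tag (SD, n = 4 each). It was the only gene called, at an FDR of 0.00808 in the quasi-likelihood test of edgeR, among 13542 tested. A level of RNA counted over the whole gene does not check the labels, because the counts do not resolve the deleted part. Control-tagged replicates 2 and 3 stood farthest apart of the pairs within a group, with 49.9 as the chi-square between their counts divided by its degrees of freedom, against 6.77 to 29.0 for the other pairs. Counts of the members are therefore also given without both of them. Ventricular cardiomyocyte markers were abundant in every library, with a summed CPM of 64859 to 101071 in the control-tagged and 83628 to 104016 in the knockout-tagged libraries. No label states that the libraries of a group came from separate mice, and p-values then measure only the spread between these libraries.

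The 4 pairs of related members are shown first by the longest coding sequence that they share without a mismatch, because reads from such a stretch cannot be assigned to one gene of the pair by their sequence. Coordinates are those of GRCm38 with GENCODE M21, and exons are numbered within 1 transcript of each gene. *Adrb1* (chr19:56723344-56723373, + strand, exon 1 of 1) and *Adrb3* (chr8:27227490-27227519, - strand, exon 2 of 4) share 30 bases. *Adra1a* (chr14:66637769-66637783, + strand, exon 2 of 4) and *Adra1b* (chr11:43835826-43835840, - strand, exon 1 of 2) share 15 bases. *Adcy5* (chr16:35298575-35298603, + strand, exon 18 of 21) and *Adcy6* (chr15:98594338-98594366, - strand, exon 19 of 22) share 29 bases, and *Arrb1* (chr7:99598518-99598535, + strand, exon 14 of 16) and *Arrb2* (chr11:70439689-70439706, + strand, exon 12 of 14) share 18 bases.
Adrb1 and Adrb3: tgctggctgcccttcttcctggccaacgtg
Adra1a and Adra1b: cattgtcaacctggc
Adcy5 and Adcy6: cggctgctcaatgagatcatcgcagactt
Arrb1 and Arrb2: cctaatgcaccccaagcc
All 4 stretches are shorter than the 100 bases of a read, and no longer one was found in whole transcripts, so that every read of full length carries bases that separate the genes of a pair.

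*Adrb1* (ENSMUSG00000035283, chr19:56722199-56733113, + strand) encodes the beta-1 receptor, the main receptor by which catecholamines drive the cardiomyocyte. Its normalized CPM was 13.8, 10.7, 12.7 and 17.8 in control-tagged replicates 1 to 4 and 18.4, 18.8, 14.3 and 11.6 in knockout-tagged replicates 1 to 4. The groups overlapped, since knockout-tagged replicate 4 lay below 3 of the 4 control-tagged libraries. The means were 13.8 ± 2.99 and 15.8 ± 3.46 (SD, n = 4 each), and the log2 fold change was 0.20 (SE 0.19, 95% interval -0.21 to 0.60, edgeR FDR 0.785). The difference was smaller than the spread between replicates, and its interval still held a change of 1.5-fold, the size needed for a call.

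*Adrb3* (ENSMUSG00000031489, chr8:27225776-27250616, - strand), the beta-3 receptor, is known from adipocytes, where it drives lipolysis and heat production. It had counts of 0, 0, 0 and 2 in the control-tagged libraries and 1, 1, 2 and 1 in the knockout-tagged libraries. No library reached 3 counts, the floor used here, which corresponds to a CPM of 0.202 to 0.266, so that no fold is given. It was the only member that did not pass the filter on low counts (2 or more libraries with a CPM of 1 or more). Adipocyte markers were near 0 as well: 3 of 6 had no count in any library, and their summed CPM was at most 1.55 in the control-tagged and at most 0.080 in the knockout-tagged libraries. Of 4 brown adipocyte markers, *Ucp1*, the uncoupling protein that defines the cell type, had a CPM of at most 0.080 and *Elovl3* had no count in any library. *Cidea* (45.0 ± 8.38 and 44.4 ± 6.41) and *Cox8b* (290 ± 37.4 and 388 ± 51.1 in the control-tagged and the knockout-tagged libraries, SD, n = 4 each) were present throughout, *Cox8b* with an unadjusted p of 0.00694 and an edgeR FDR of 0.453. The list summed to 287 to 370 CPM in the control-tagged and 363 to 486 CPM in the knockout-tagged libraries. Nearly all of this came from *Cidea* and *Cox8b*. With *Ucp1* and *Elovl3* at or near 0, the sum is not a measure of brown adipocytes. Its relation to the counts of *Adrb3* was not tested.

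*Adra1a* (ENSMUSG00000045875, chr14:66635251-66771168, + strand) encodes the alpha-1A receptor, 1 of the Gq-coupled receptors of the myocyte. Its normalized CPM was 9.28, 6.39, 5.92 and 8.72 in the control-tagged and 13.3, 12.3, 10.1 and 8.21 in the knockout-tagged libraries. The first 3 knockout-tagged libraries lay above every control-tagged one, and replicate 4 lay inside the control range. The means were 7.58 ± 1.67 and 11.0 ± 2.28 (SD, n = 4 each). The log2 fold change of 0.54 (SE 0.19, 95% interval 0.11 to 0.96) had the lowest unadjusted p of the members, 0.0177, with an edgeR FDR of 0.489. The exact 2-sided permutation test gave a p of 0.0857, where 0.0286 is the smallest that 4 against 4 libraries can give.

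*Adra1b* (ENSMUSG00000050541, chr11:43774606-43901210, - strand) encodes the alpha-1B receptor. Its normalized CPM was 37.7, 21.8, 30.9 and 29.1 in the control-tagged and 31.9, 42.5, 46.9 and 35.6 in the knockout-tagged libraries. Control-tagged replicate 1 lay above 2 knockout-tagged libraries, whereas the other 3 lay below all of them. The means were 29.9 ± 6.50 and 39.2 ± 6.77 (SD, n = 4 each), with a log2 fold change of 0.39 (SE 0.17, 95% interval 0.03 to 0.75, unadjusted p = 0.0355, edgeR FDR 0.525). Both alpha-1 receptors were thus higher in the mean of the knockout-tagged libraries, by 0.54 and 0.39 on the log2 scale, and neither passed the test.

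Counts on *Adra1b* add the transcripts of 2 RefSeq starts that lie far apart, and the promoters of both are shown because their composition differs. They are the 250 bases before each start, 5′ to 3′ on the strand of the gene, from RefSeq with the build GRCm38.p6, and capitals mark a GC box (GGGCGG or its reverse complement CCGCCC). The first, at chr11:43836490-43836739, lies inside the gene as annotated by GENCODE and the second, at chr11:43901238-43901487, lies upstream of it.
Adra1b, start inside the gene: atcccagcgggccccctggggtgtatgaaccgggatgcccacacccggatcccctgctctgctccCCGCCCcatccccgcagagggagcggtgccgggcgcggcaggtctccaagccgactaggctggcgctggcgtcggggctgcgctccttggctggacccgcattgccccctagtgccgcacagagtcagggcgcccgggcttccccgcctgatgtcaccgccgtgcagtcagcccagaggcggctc
Adra1b, upstream start: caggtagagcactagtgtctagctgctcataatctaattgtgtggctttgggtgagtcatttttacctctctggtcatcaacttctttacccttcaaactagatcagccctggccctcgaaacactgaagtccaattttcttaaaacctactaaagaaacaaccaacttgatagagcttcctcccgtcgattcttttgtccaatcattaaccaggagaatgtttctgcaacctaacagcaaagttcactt
The inner window had a GC content of 72.8% and 22 CpG, and the upstream window 41.6% and 3 CpG, where the median of 32851 promoters was 52.4% and 6 CpG. The GC box stood once in the inner window and not in the other, and 32.74% of all promoters held it on either strand. The cAMP response element (CRE, TGACGTCA), which 1.55% of promoters held, was in neither window. The table of counts per gene does not separate the transcripts of the starts, so their use was not tested. Entries matched 4 members (*Adcy5*, *Adra1b*, *Adrb1* and *Grk5*) with 5 windows.

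**Figure D1:**
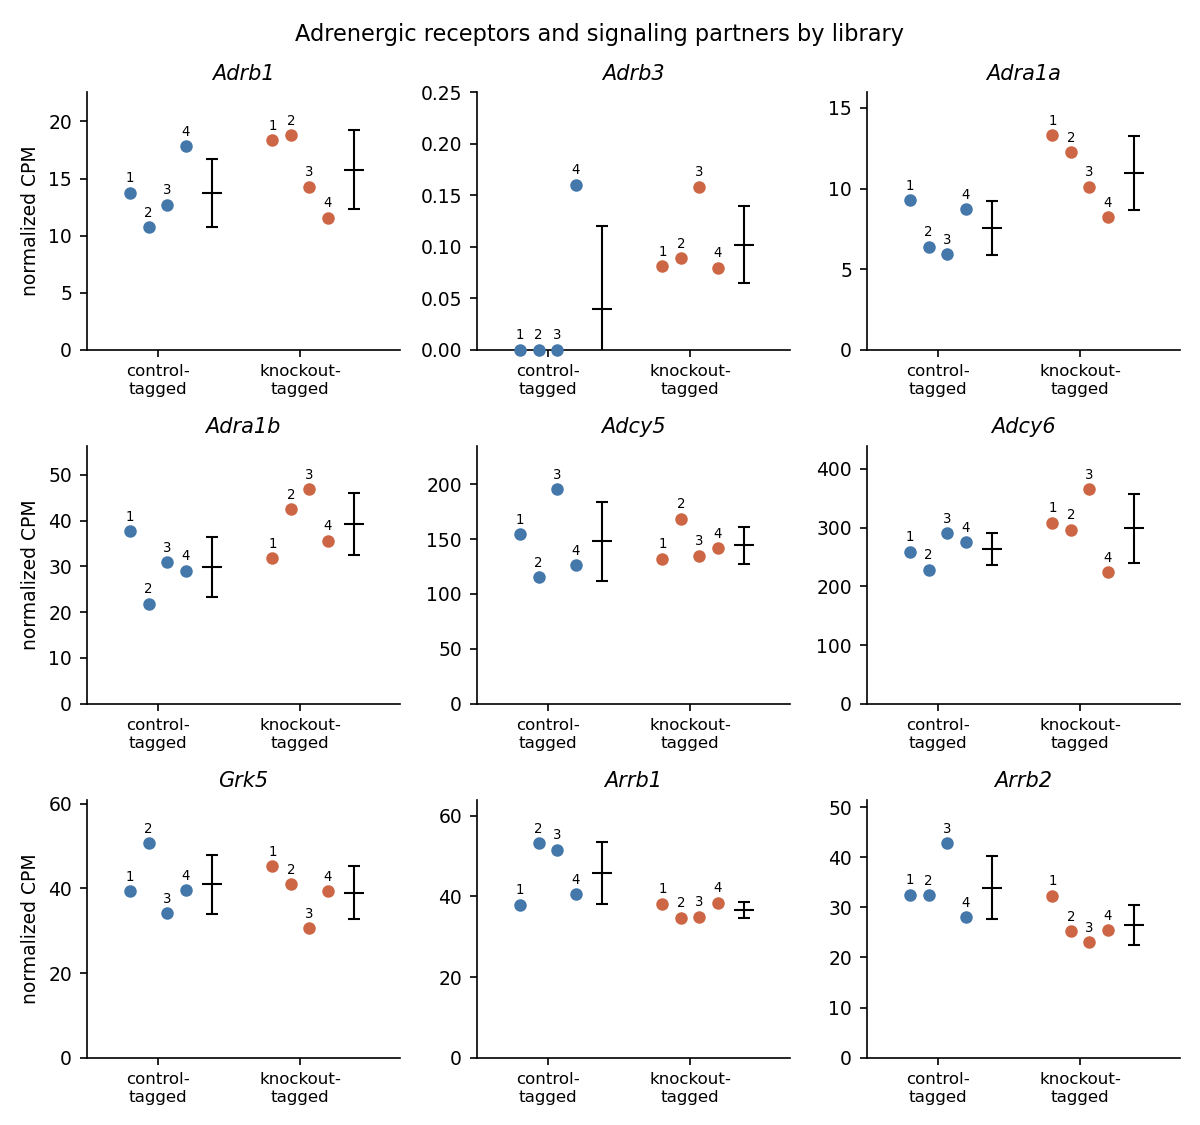
Normalized CPM of each member (y axis, linear, from 0) in the control-tagged (blue) and knockout-tagged (orange) libraries. Points are single libraries with their replicate number, and the bars give the mean ± SD (n = 4). The knockout-tagged mean is above the control-tagged mean for *Adra1a* (11.0 against 7.58) and below it for *Arrb2* (26.5 against 33.9), and the groups overlap in all 9 panels.

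*Adcy5* and *Adcy6* encode the adenylyl cyclases that prevail in the cardiomyocyte and make cAMP when Gs is active. *Adcy5* (ENSMUSG00000022840, chr16:35154877-35305738, + strand) had a normalized CPM of 154, 115, 196 and 126 in the control-tagged and 132, 168, 135 and 142 in the knockout-tagged libraries. The knockout-tagged libraries lay inside the control range, and the log2 fold change was -0.04 (SE 0.16, 95% interval -0.38 to 0.30, edgeR FDR 0.960). *Adcy6* (ENSMUSG00000022994, chr15:98589973-98610076, - strand) had 259, 228, 290 and 275 in the control-tagged and 308, 297, 366 and 223 in the knockout-tagged libraries. For *Adcy6*, 3 knockout-tagged libraries lay above all control-tagged ones and replicate 4 lay below all of them. Its log2 fold change was 0.18 (SE 0.14, 95% interval -0.13 to 0.49, edgeR FDR 0.734). Neither difference passed the test, and both intervals exclude a change of 1.5-fold in either direction. *Adcy6* shares 605 exon bases with the antisense gene *Gm29331*, which had at most 1 count in a library.

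*Grk5* (ENSMUSG00000003228, chr19:60889749-61095968, + strand) encodes a kinase that phosphorylates active receptors and can also enter the nucleus. Its normalized CPM was 39.3, 50.7, 34.1 and 39.6 in the control-tagged and 45.2, 41.0, 30.6 and 39.4 in the knockout-tagged libraries. The groups overlapped between 34.1 and 45.2, with 1 control-tagged library above and 1 knockout-tagged library below that range, and had means of 40.9 ± 7.01 and 39.0 ± 6.15 (SD, n = 4 each). The log2 fold change was -0.07 (SE 0.14, 95% interval -0.38 to 0.24, edgeR FDR 0.917).

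*Arrb1* (ENSMUSG00000018909, chr7:99535466-99606771, + strand) encodes beta-arrestin 1. Its normalized CPM was 37.95, 53.3, 51.7 and 40.6 in the control-tagged and 38.2, 34.7, 35.0 and 38.5 in the knockout-tagged libraries. Control-tagged replicates 2 and 3 lay well above the rest, replicate 4 lay above all knockout-tagged libraries, and replicate 1 lay among them. The spread was wider in the control-tagged libraries (45.9 ± 7.72, n = 4, a coefficient of variation of 16.8%) than in the knockout-tagged ones (36.6 ± 2.02, n = 4, 5.52%). This difference in spread was not tested. The log2 fold change was -0.33 (SE 0.12, 95% interval -0.59 to -0.06, unadjusted p = 0.0190, edgeR FDR 0.492), and the exact permutation p was 0.0857.

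*Arrb2* (ENSMUSG00000060216, chr11:70432635-70440828, + strand) encodes beta-arrestin 2. Its normalized CPM was 32.5, 32.4, 42.8 and 28.1 in the control-tagged and 32.3, 25.2, 23.0 and 25.4 in the knockout-tagged libraries. Control-tagged replicate 3 was the highest of all, and knockout-tagged replicate 1 lay inside the control range while the other 3 lay below it. The means were 33.9 ± 6.28 and 26.5 ± 4.05 (SD, n = 4 each). The log2 fold change was -0.36 (SE 0.14, 95% interval -0.68 to -0.04, unadjusted p = 0.0295, edgeR FDR 0.521), and the exact permutation p was 0.0571.

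Of the 8 members that passed the filter, 0 were called at an FDR under 0.1 and a change of 1.5-fold or more, where 0.00738% of all genes tested were called. At an unadjusted p under 0.05 there were 4 members, against 8.96% of all genes: *Adra1a* and *Adra1b* were higher (3.32% of all genes) and *Arrb1* and *Arrb2* were lower (5.64%). The groups did not overlap for 0 members, against 4.98% of all genes. The likelihood ratio test of edgeR and DESeq2 also called 0 members, where they called 53 and 32 of all 13542 genes tested. Each of these tests had 4 members at an unadjusted p under 0.05, against 9.14% and 8.67% of all genes. The median log2 fold change of the 8 members was 0.07. The number at an unadjusted p under 0.05 was 2 without control-tagged replicate 2 (*Adra1a* and *Arrb2*, against 7.73% of all genes in the same fit). It was 2 without control-tagged replicate 3 (*Adra1b* and *Arrb1*, against 8.19%). It was also 2 without knockout-tagged replicate 2 (against 5.25%) or without knockout-tagged replicate 3 (against 6.2%), *Adra1a* and *Arrb1* each time. Without control-tagged replicates 2 and 3 together it was 0, with a log2 fold change of 0.28 for *Adra1a* and -0.10 for *Arrb1*. The share of all genes at that p also fell in this fit, to 3.93%.

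**Figure D2:**
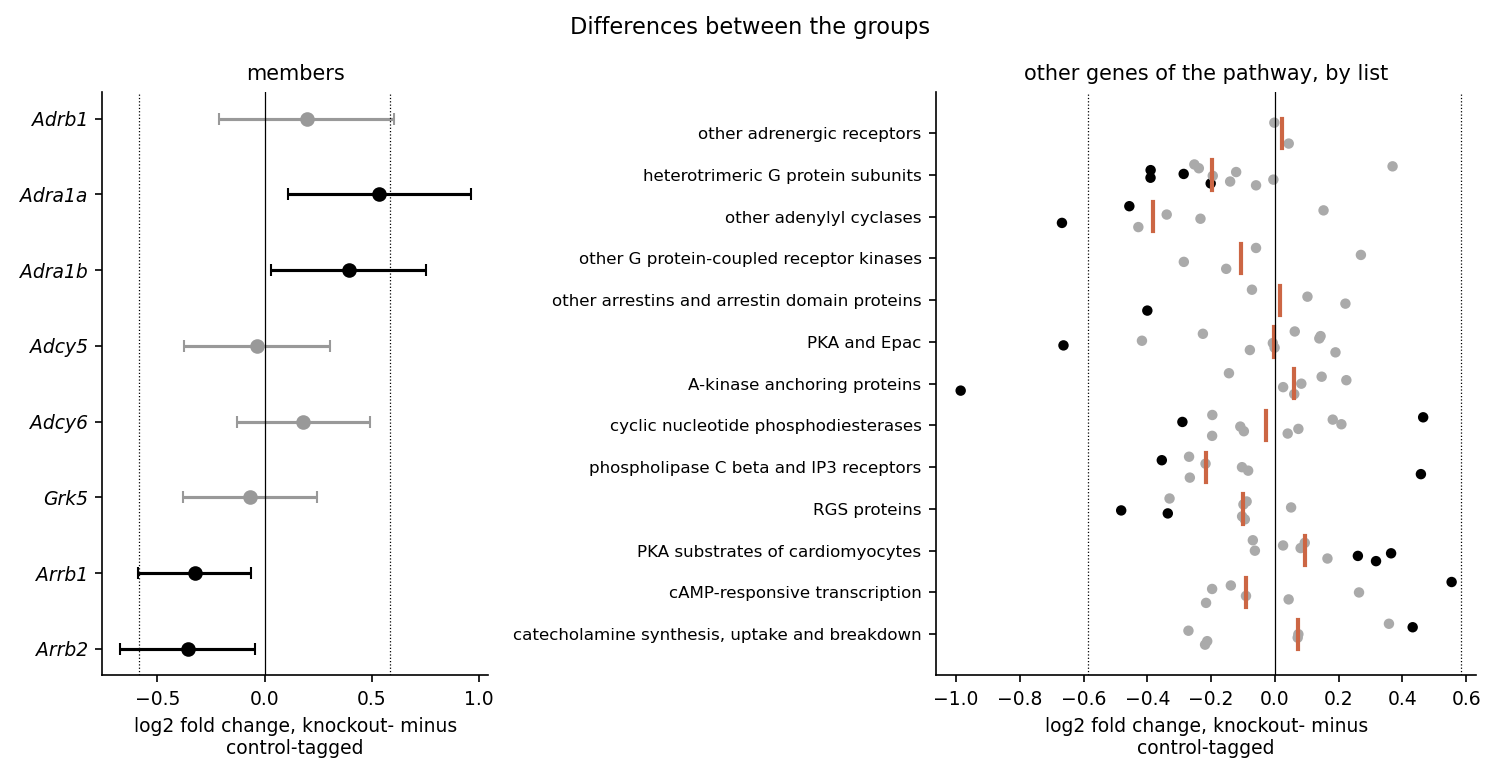
Log2 fold changes, knockout-tagged minus control-tagged, of the 8 members tested (left, point and 95% interval) and of the other genes of the pathway by list (right, a point per gene, orange bar at the list's median). Black marks an unadjusted p under 0.05, grey all others, and dotted lines a change of 1.5-fold in either direction. *Adra1a* (0.54) and *Adra1b* (0.39) lie to the right of 0, *Arrb1* (-0.33) and *Arrb2* (-0.36) to the left, and none of the 8 points of the members passes the dotted lines.

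Marker lists of other cell types held between 0 and 3 genes lower at an unadjusted p under 0.05, and none of their genes passed an FDR under 0.1. Over all genes tested, 5.64% were lower at that p. Arrestins are made in most cell types of the heart, and in bulk tissue fewer cells of a type and less RNA per cell cannot be told apart. Of 5 endothelial markers, 3 were lower at an unadjusted p under 0.05, namely *Pecam1* (338 ± 33.3 against 277 ± 33.1 CPM), *Cdh5* (435 ± 57.3 against 335 ± 29.1) and *Tie1* (272 ± 38.4 against 206 ± 26.0; SD, n = 4 each). The summed endothelial CPM ranged from 1083 to 1386 in the control-tagged and from 987 to 1117 in the knockout-tagged libraries. For smooth muscle cells and pericytes, 2 of 5 markers (*Rgs5* and *Kcnj8*) were lower at that level, with sums of 1046 to 1556 and 711 to 1159. The endothelial *Kdr* (log2 fold change 0.01) and the smooth muscle genes *Tagln* (0.00) and *Myh11* (-0.02) were at nearly the same mean in both groups. For leukocytes it was 1 of 5 (*Csf1r*), with sums of 162 to 204 and 113 to 177, and for fibroblasts 0 of 5, with sums of 760 to 1108 and 453 to 975.5. At any p, 4 of 5 endothelial and 4 of 5 smooth muscle and pericyte markers had a lower mean. So did 5 of 5 leukocyte and 5 of 5 fibroblast markers, against 50.3% of all genes. Of 8 ventricular cardiomyocyte markers, 6 had a higher and 2 a lower mean. *Tnni3* and *Pln* were higher at an unadjusted p under 0.05, where 3.32% of all genes were. The log2 fold change was 0.07 for *Myh6*, -0.07 for *Myl3* and -0.09 for *Actc1*, and the summed CPM of the list overlapped between the groups. The part of these cell types in the differences of *Arrb1*, *Arrb2*, *Adra1a* and *Adra1b* was not tested.

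The relations of all 28 pairs of members across the 8 libraries were computed on log2 normalized CPM, and the pairs with the lowest permutation p of Pearson r are described. The permutations ran over all 8 libraries without regard to the groups, so that r and its p include differences between the groups. No p was computed for r within the groups. *Adra1b* and *Arrb1* had a Pearson r of -0.841 (exact permutation p = 0.00469, adjusted 0.117) and a Spearman rho of -0.929 (exact permutation p = 0.00223, adjusted 0.0625). Their r was -0.652 without control-tagged replicate 2 and knockout-tagged replicate 3, the libraries farthest from the median of *Adra1b*, and -0.72 within the groups. *Adra1a* and *Arrb1* had an r of -0.857 (exact permutation p = 0.00838, adjusted 0.117) and a rho of -0.810 (exact permutation p = 0.0218, adjusted 0.203). Without control-tagged replicate 3 and knockout-tagged replicate 1 their r was -0.912, and within the groups it was -0.72. *Adrb1* and *Adra1a* had an r of 0.794 (exact permutation p = 0.0212, adjusted 0.198) and a rho of 0.833 (exact permutation p = 0.0154, adjusted 0.203). Without knockout-tagged replicates 1 and 2 their r was 0.554, and within the groups it was 0.84. Both were below their means in control-tagged replicates 2 and 3 and in knockout-tagged replicate 4. They were above their means in knockout-tagged replicates 1 and 2. None of the 28 pairs passed an adjusted p of 0.05, and all 8 libraries share the scaling by library size.

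**Figure D3:**
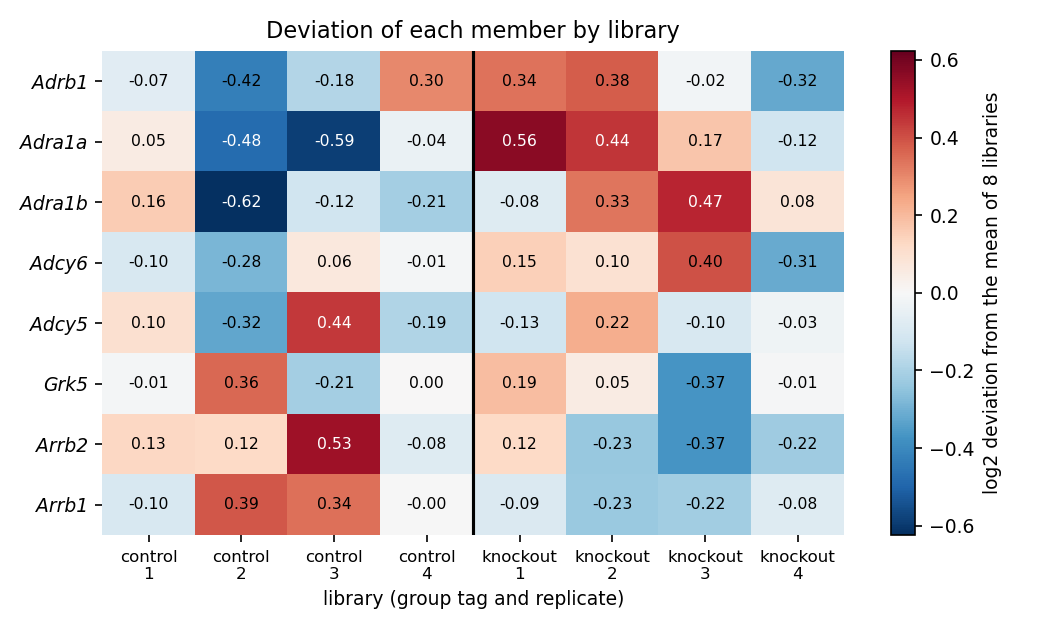
Deviation of the log2 normalized CPM of 8 members from their mean over 8 libraries (colour and printed value, rows are members, columns are libraries, the line separates the groups). Control-tagged replicates 2 and 3 are the lowest for *Adra1a* (-0.48 and -0.59) and the highest for *Arrb1* (0.39 and 0.34).

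By the rule for named genes, those whose pattern over the 8 libraries was most like that of *Adra1a*, the member with the lowest p, were *Ngdn* (Pearson r = 0.979), *Chkb* (r = 0.977) and *Upf3b* (r = 0.968). *Ngdn* differed little between the groups, with 23.1 ± 1.30 against 24.8 ± 1.44 CPM. *Chkb* had 55.7 ± 7.33 against 70.3 ± 7.52 and *Upf3b* 10.6 ± 1.25 against 13.1 ± 1.66 (SD, n = 4 each). These genes were picked for their likeness among 13542, and the values are a description.

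Levels of different genes were compared as normalized CPM per kb of merged exons, as medians over the 8 libraries. *Adcy6* had the highest level, 41.7 (range 33.0 to 53.9), followed by *Adcy5* at 19.2 (16.03 to 27.2). *Arrb2* was next at 10.6 (8.08 to 15.1), and the ranges of these 3 genes did not overlap. *Adra1b* had 9.98 (6.46 to 13.9) and was the receptor with the highest level. Below it were *Grk5* at 5.60 (4.33 to 7.19), *Adrb1* at 4.15 (3.18 to 5.56) and *Arrb1* at 3.43 (3.11 to 4.77). From *Arrb2* down to *Arrb1*, the ranges of neighbours in this order overlapped. *Adra1a* at 1.03 (0.678 to 1.53) lay apart from *Arrb1* above it, and *Adrb3* at 0.0238 (0 to 0.0474) lay apart from *Adra1a*. Merged exons join the exons of all annotated transcripts of a gene, whether or not they are used in this tissue. They measure 11175 bases for *Arrb1* and 2845 for *Arrb2*. Without division by length, *Arrb1* had the higher median CPM of these 2 genes (38.3 against 30.2).

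The balance within pairs was taken as the log2 ratio of the levels per length in each library. *Adra1a* to *Adra1b* was -3.35 ± 0.30 in the control-tagged and -3.21 ± 0.43 in the knockout-tagged libraries. *Adcy5* to *Adcy6* was -0.94 ± 0.25 and -1.12 ± 0.36, and *Arrb1* to *Arrb2* was -1.54 ± 0.23 and -1.50 ± 0.17 (SD, n = 4 each). The groups overlapped for all 3 ratios, and each ratio was below 0 in every library. Per length, *Adra1a* thus lay below *Adra1b*, *Adcy5* below *Adcy6* and *Arrb1* below *Arrb2* in both groups. The order of the arrestins rests on the lengths used. *Adrb1* to *Adrb3* gave no ratio because *Adrb3* was at 0 in 3 libraries.

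**Figure D4:**
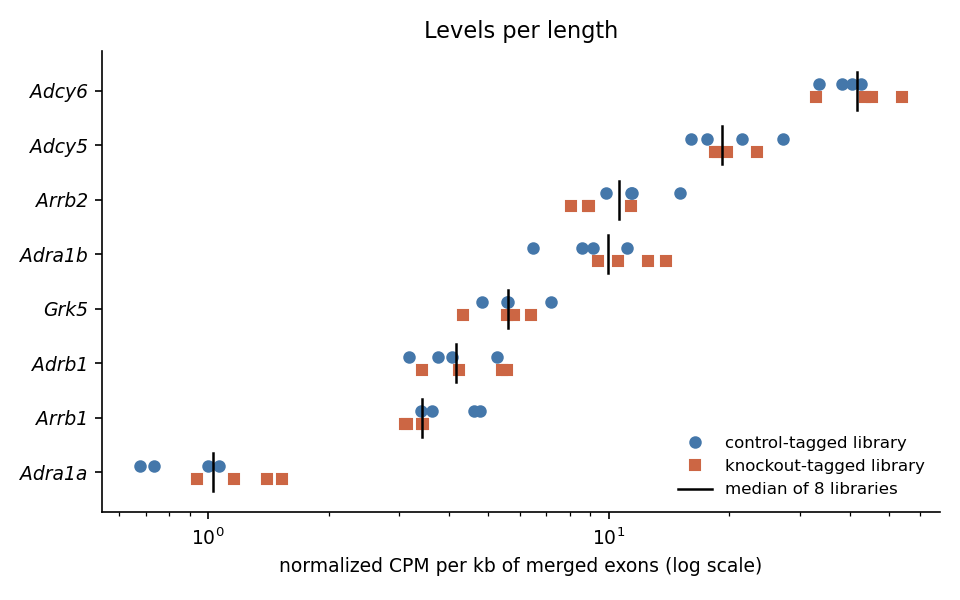
Normalized CPM per kb of merged exons (x axis, log scale) of the 8 members that passed the filter, in each control-tagged (blue circle) and knockout-tagged (orange square) library, with the median of 8 libraries as a line. Medians run from 41.7 for *Adcy6* to 1.03 for *Adra1a*.

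Other genes of the pathway were described in 13 lists by their role, 102 genes in all, of which 93 passed the filter. At an unadjusted p under 0.05 there were 20, or 21.5%, against 8.96% of all genes tested, 7 of them higher (7.53%, against 3.32%) and 13 lower (13.98%, against 5.64%). None passed an FDR under 0.1 in edgeR, and the lowest FDR was 0.442. The groups did not overlap for 7 genes, or 7.53%, near the 4.98% of all genes. Over all genes tested, 50.3% had a lower and 49.7% a higher mean, which are the shares to read each list's counts against. The number at an unadjusted p under 0.05 was 13 (14%, against 7.73% of all genes in the same fit) without control-tagged replicate 2 and 10 (10.8%, against 5.25%) without knockout-tagged replicate 2. Without control-tagged replicates 2 and 3 together it was 5 (5.38%, against 3.93%), so that little of the difference from all genes was left. Because the lists were chosen with earlier results of these data known, these shares are a description and not a test. The genes of the lists were also not matched to all genes by their level. In each list the 2 genes with the lowest p are named, as means ± SD of normalized CPM (n = 4 per group) in the control-tagged and the knockout-tagged libraries.

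Among the other adrenergic receptors, 2 of 4 genes passed the filter, and neither had a p under 0.05: *Adra1d* had 3.01 ± 1.04 and 3.11 ± 0.284, and *Adra2b* had 1.59 ± 0.587 and 1.58 ± 0.569. Of 12 G protein subunits tested, 11 had a lower mean (50.3% of all genes), 4 of them at an unadjusted p under 0.05 (5.64% of all genes), with a median log2 fold change of -0.20. *Gnai2*, an alpha subunit that inhibits adenylyl cyclase, had 466 ± 93.2 and 356 ± 21.9 (log2 fold change -0.39, edgeR FDR 0.468). *Gnb1*, a beta subunit, had 217 ± 20.4 and 178 ± 14.9 (log2 fold change -0.29, edgeR FDR 0.484), and the groups did not overlap for either gene. *Gnaq* and *Gnb4* were the other 2 at that p. *Gnaq* had 4.32 to 4.62 CPM per kb of merged exons in the control-tagged and 3.70 to 4.12 in the knockout-tagged libraries. With *Gnaq*, the groups did not overlap for 3 of the 12 subunits, against 4.98% of all genes.

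Of 6 other adenylyl cyclases tested, 5 had a lower mean, 2 of them at an unadjusted p under 0.05, and the median log2 fold change was -0.38. *Adcy3* had 8.31 ± 1.18 and 5.24 ± 0.950 with no overlap (log2 fold change -0.67, unadjusted p = 0.00271, edgeR FDR 0.442), the lowest p of all pathway genes. *Adcy9* had 7.74 ± 2.07 and 5.65 ± 0.869 (log2 fold change -0.46). The log2 fold changes of *Adcy5* (-0.04) and *Adcy6* (0.18) lay above both, and the difference between cyclases was not tested. Of 4 other receptor kinases tested, none had a p under 0.05: *Grk3* had 25.9 ± 2.86 and 21.3 ± 6.32, and *Grk4* had 2.20 ± 0.413 and 2.66 ± 0.204. Of 4 arrestin domain genes tested, 1 was lower at that level, *Arrdc1*, with 13.1 ± 1.35 and 9.93 ± 1.49 (log2 fold change -0.40), whereas *Arrdc3* had 41.1 ± 2.33 and 44.1 ± 7.04.

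Downstream of cAMP, 10 genes of PKA and the exchange factor Epac were tested, with a median log2 fold change of -0.00. *Prkar1b*, a regulatory subunit of PKA, was the only one at an unadjusted p under 0.05, with 4.12 ± 0.605 and 2.60 ± 0.874. *Rapgef3*, which encodes Epac1, had 83.7 ± 5.61 and 71.6 ± 11.1. Of 7 A-kinase anchoring proteins, which hold PKA near its substrates, 1 was lower at that level: *Akap5* had 2.81 ± 1.63 and 1.42 ± 0.320, and *Akap9* had 24.5 ± 5.60 and 28.6 ± 1.87. Of 10 phosphodiesterases, which break down cyclic nucleotides, *Pde7a* was higher (50.5 ± 1.91 and 69.7 ± 14.6, log2 fold change 0.47) and *Pde4b* was lower (43.9 ± 4.75 and 35.9 ± 3.54, log2 fold change -0.29) at an unadjusted p under 0.05. None of these passed the FDR.

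Of 9 PKA substrates of cardiomyocytes tested, 7 had a higher mean, 3 of them at an unadjusted p under 0.05. *Pln*, the inhibitor of the calcium pump of the sarcoplasmic reticulum, had 4227 ± 464 and 5266 ± 322 with no overlap (log2 fold change 0.32, edgeR FDR 0.541). *Cacna1c*, the pore of the L-type calcium channel, had 251 ± 27.5 and 301 ± 32.1 (log2 fold change 0.26), and *Tnni3*, cardiac troponin I, was the third. *Pln*, *Tnni3* and *Ryr2* stand also among the ventricular cardiomyocyte markers. In the list of cAMP-responsive transcription, 1 of 7 genes was higher at that level: *Ppargc1a*, a coactivator of mitochondrial genes, had 94.7 ± 20.2 and 139 ± 17.6 with no overlap (log2 fold change 0.55, unadjusted p = 0.00330, edgeR FDR 0.442). *Crem*, a repressor and activator at CRE sites, had 17.8 ± 3.89 and 15.3 ± 1.60.

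On the Gq side, 6 of 7 phospholipase C beta and IP3 receptor genes had a lower mean, with 1 gene lower and 1 higher at an unadjusted p under 0.05. *Itpr2*, a calcium release channel opened by IP3, had 22.3 ± 1.67 and 17.4 ± 1.31 with no overlap (log2 fold change -0.35, edgeR FDR 0.453), and *Plcb2* had 2.77 ± 0.465 and 3.82 ± 0.693. Of 8 RGS genes, whose proteins shorten the active state of G proteins, 7 had a lower mean and 2 were lower at that level: *Rgs5* had 811 ± 182 and 581 ± 91.4, and *Rgs4* had 31.5 ± 5.01 and 24.9 ± 3.55. *Rgs5* is also a pericyte marker. Among 7 genes of catecholamine synthesis, uptake and breakdown that were tested, 1 was higher at that level, *Maob*, a monoamine oxidase, with 45.6 ± 5.39 and 61.5 ± 10.7 (log2 fold change 0.43), and *Slc22a3*, a transporter of extraneuronal uptake, had 7.63 ± 1.87 and 9.79 ± 1.68. Sympathetic neuron markers were low, with sums of 1.45 to 7.53 CPM in the control-tagged and 1.42 to 6.00 in the knockout-tagged libraries, and *Th* and *Slc6a2* did not pass the filter.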

How the data were processed

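LV RNA was sequenced in 8 libraries with paired reads of 100 bases. The authors trimmed reads with Trim Galore 0.4.4 (Phred cutoff 30), aligned them to GRCm38 with STAR 2.5.4b (mismatch share 0.04, at most 10 alignments) and assigned them to GENCODE M16 genes with featureCounts (Rsubread 1.32.4). The authors deposited whole-number counts per gene, not normalized. The settings for strand and for reads with several alignments are not given in the sources used here, and reads of antisense genes or paralogs could therefore be included. Sources differ on how RNA was enriched (ribosomal depletion in the labels, poly-A selection in the paper), and cardiomyocytes appear in the library names although LV tissue is the labelled source.

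Libraries were grouped by genotype tag and library name. Genes that reached a CPM of 1 in 2 or more libraries (13542 of 46040) were tested with glmQLFit and glmQLFTest of edgeR 4.0.16 in R 4.3.3 (TMM factors 0.917 to 1.12, no covariates), with Benjamini-Hochberg FDR over all genes tested. Calls needed an FDR under 0.1 together with a 1.5-fold change in either direction, the authors' limits. Normalized CPM is the CPM with library sizes multiplied by the TMM factors, and its log2 used a prior count of 2. Single members were also tested with an exact 2-sided permutation test over 70 assignments. A count under 3 in a library was treated as below the floor, which covers counting error only. At these depths, the counting error of the member tested with the fewest reads, *Adra1a*, was a coefficient of variation of 9.22%. Exon lengths and coordinates came from GENCODE M21.

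Alternatives were edgeR's likelihood ratio test, which the authors ran, DESeq2 1.42.0, RLE size factors, total counts, no filter, filterByExpr, robust dispersion, a prior count of 0.5 for the permutation test, the replicate number as a block, and the omission of every single library. Leaving out control-tagged replicates 2 and 3 together was added after seeing the data. The members and lists were chosen with earlier results of these data known. Named genes are the 9 members, *Flt1*, the 2 tested genes with the lowest p in each pathway list, and the 3 genes most like the member with the lowest p. *Gnaq*, *Gnb4*, *Tnni3* and the single marker genes were named after their values were seen. Figures were drawn in Python 3.11.15.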

Additional observations from a re-analysis of the deposited data

How the results depend on the processing

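None of the 8 members was called under any of the 17 alternatives, and 130 of 136 log2 fold changes kept their direction. *Grk5* turned to 0.052 without control-tagged replicate 2 and to 0.03 without knockout-tagged replicate 3 (range with 1 library left out -0.15 to 0.052). *Adcy5* turned to 0.13 without control-tagged replicate 3, to 0.0028 without knockout-tagged replicate 1 and to 0.038 without control-tagged replicates 2 and 3 together (range with 1 library left out -0.14 to 0.13), where *Adrb1* turned to -0.0050. That last setting left 0 members, 5 pathway genes and 525 of all genes at an unadjusted p under 0.05, and called 0 genes. With 1 library left out, members at an unadjusted p under 0.05 numbered 2 to 4, pathway genes 10 to 21 and all genes 707 (without knockout-tagged replicate 2) to 1356, and 1 to 3 genes were called. Genes called numbered 53 with the likelihood ratio test, 32 with DESeq2 and 23 without a filter, against 1; the cause was not tested. Same-numbered libraries of the groups had correlations of their deviations from -0.0555 to 0.343, against -0.494 to 0.302 for libraries with different numbers. These few values cannot show whether the numbers pair the libraries. The fit with the replicate block gave 4 members and 18 pathway genes at an unadjusted p under 0.05 and 1 gene called. At 0 to 2 counts per library, no difference of *Adrb3* was detectable at this depth.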
